A study of Mus musculus with 8 samples.

Results

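The 8 genes described here encode ion channels of the cell membrane: the mechanically gated or mechanically responsive cation channels Piezo1, Piezo2 and Trpv4, the inwardly rectifying potassium channels Kcnj2 and Kcnj8, the calcium-activated potassium channels Kcnn3 and Kcnn4, and the voltage-gated potassium channel Kcna5. They were taken by symbol from the feature list of the second run and matched by gene identifier to that of the first, and all 8 were found among the 30406 genes common to both lists. The data are 8 single-cell RNA libraries of YFP-positive cells sorted from male ROSA26-eYFP+/+ Cdh5-CreERT2+ mice. All mice, controls included, ate tamoxifen for 2 weeks from 6 weeks of age. Cre driven by the endothelial Cdh5 promoter then switches on YFP. At 8 weeks of age they were put on normal chow with 5.8% fat or on the high fat diet with 60% fat, and stayed on it for 12 to 13 weeks. The mesentery or the epididymal adipose tissue of 6 mice was pooled for each library, digested with Liberase in the presence of Actinomycin D, a blocker of transcription, and sorted. Each of the 4 groups (either tissue on either diet) holds 2 libraries, 1 from each of runs A and B, in which the experiment was done again. n is therefore 2 pools of mice per group, cells are not replicates, and p-values measure the spread between pools.

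Endothelial cells line blood and lymph vessels and sense the drag and stretch of flow. Piezo channels open when the membrane is put under tension, and Trpv4 admits calcium in response to several stimuli, flow among them. In arteries a rise in endothelial calcium opens the small- and intermediate-conductance channels encoded by Kcnn3 and Kcnn4. The hyperpolarisation that follows spreads to smooth muscle and relaxes it. Kcnj2 encodes Kir2.1, an inward rectifier, Kcnj8 encodes Kir6.1, the pore of ATP-sensitive channels in mural cells, and Kcna5 encodes Kv1.5. The title of the series asks whether endothelial cells of arteries lose heterogeneity on an obesogenic diet, which leads to 2 questions for these channels: in which vessel type each is found, and whether diet or tissue moves it there.

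Positions are given for 7 of the 8 genes (GRCm38, GENCODE vM21). Trpv4 is at chr5:114622152-114658421 on the minus strand, Kcnj8 at chr6:142564837-142571614 (minus), Kcnn3 at chr3:89520164-89675132 (plus) and Kcnn4 at chr7:24370263-24386690 (plus). Piezo1 is at chr8:122481698-122551329 (minus), Kcnj2 at chr11:111066164-111076821 (plus) and Kcna5 at chr6:126532551-126535412 (minus). The promoters of 4 genes are shown for the contrast between vessel types: of these, Trpv4 and Kcnn4 had their highest mean level among endothelial classes in arterial-like cells, and Kcnn3 and Kcnj8 were raised in lymphatic-like cells. Each is 300 bases of RefSeq sequence (GRCm38.p6), from 250 before to 50 after the annotated start, 5′ to 3′ on the strand of the gene. Capitals mark CACCC or its reverse complement GGGTG, the core read by the KLF factors that endothelial cells use under flow. Matches may overlap by a base.

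Trpv4 (chr5:114658372-114658671): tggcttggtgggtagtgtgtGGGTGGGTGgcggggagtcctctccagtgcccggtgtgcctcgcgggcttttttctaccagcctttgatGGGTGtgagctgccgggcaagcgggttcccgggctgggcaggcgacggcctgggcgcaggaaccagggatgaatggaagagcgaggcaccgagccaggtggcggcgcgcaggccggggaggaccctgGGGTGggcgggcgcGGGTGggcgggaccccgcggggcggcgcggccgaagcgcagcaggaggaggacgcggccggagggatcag

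Kcnn4 (chr7:24370013-24370312): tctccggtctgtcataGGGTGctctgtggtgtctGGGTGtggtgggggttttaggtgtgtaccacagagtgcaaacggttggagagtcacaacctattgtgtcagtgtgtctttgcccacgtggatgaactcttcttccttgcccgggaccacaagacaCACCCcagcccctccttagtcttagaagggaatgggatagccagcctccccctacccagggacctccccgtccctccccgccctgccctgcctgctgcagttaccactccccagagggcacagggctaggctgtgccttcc

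Kcnn3 (chr3:89519914-89520213): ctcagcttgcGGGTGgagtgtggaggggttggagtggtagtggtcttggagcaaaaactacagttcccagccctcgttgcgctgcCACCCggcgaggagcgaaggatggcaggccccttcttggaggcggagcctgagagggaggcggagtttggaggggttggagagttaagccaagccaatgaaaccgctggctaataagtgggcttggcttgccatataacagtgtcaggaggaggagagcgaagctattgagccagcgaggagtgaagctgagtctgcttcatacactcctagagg

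Kcnj8 (chr6:142571565-142571864): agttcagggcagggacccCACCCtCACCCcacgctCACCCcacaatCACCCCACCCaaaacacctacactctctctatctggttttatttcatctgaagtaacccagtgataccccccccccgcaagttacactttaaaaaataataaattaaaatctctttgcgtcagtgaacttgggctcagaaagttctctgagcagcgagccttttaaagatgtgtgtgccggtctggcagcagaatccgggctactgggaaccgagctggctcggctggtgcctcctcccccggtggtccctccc

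The Trpv4 and Kcnj8 windows hold 5 matches each, Kcnn4 holds 3 and Kcnn3 holds 2. Of all 32851 promoters of this length 57.5% hold at least 1, so a match is common and serves here as a description only. The Trpv4 promoter is GC-rich (73.0% G or C), while that of Kcnj8 has 53.3%.

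After filtering, 23974 cells were kept, of which 764 were called doublets and removed before clustering. The runs stood apart: total UMIs were 3461360 to 6714473 in the run A libraries and 18829960 to 36779289 in those of run B, and the 10% mitochondrial limit removed 20.1 to 29.9% of barcodes in run A and 5.2 to 8.2% in run B. No pair of libraries shared more than 0.31% of barcodes. Cells were grouped in 36 clusters without use of the 8 channel genes or related channels, and clusters were named from marker lists, with "-like" because the names were rebuilt here and the study may have named cells differently. Arterial-like cells (clusters 5, 10, 15 and 23) numbered 120 to 668 per library, venous-like 88 to 800 and lymphatic-like 131 to 762. Capillary-like cells numbered 1081 to 2525 in the run B libraries and 12, 16, 25 and 141 in those of run A. The sort was for an endothelial reporter, yet fibroblasts, adipocytes, macrophages, T cells and B cells were found too, and cluster 9 (814 cells) carried mural and endothelial markers together and is called the mixed mural and endothelial cluster. The arterial list summed to 4916 to 6296 CPM (UMIs scaled to a common library total) in arterial-like cells and to at most 2023 CPM in venous-like cells, and the lymphatic list to 28485 to 53426 CPM in lymphatic-like cells. Levels below are CPM of the UMIs summed over a class in a library, given as mean ± SD over libraries with at least 20 cells. They are not scaled by gene length, and with 3′ tags the levels of different genes were not compared.

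Most of these channels differed between endothelial classes. Trpv4 and Kcnn4 were highest in arterial-like cells among the endothelial classes, Kcna5 in capillary-like cells, and Piezo2, Kcnn3 and Kcnj8 in lymphatic-like cells, while Piezo1 was present in all 4 endothelial classes and Kcnj2 was low in each. The classes were compared with edgeR's quasi-likelihood test with the library as a block, and calls were made at 0.05 after Benjamini-Hochberg adjustment over 10309 genes. Arterial-like against capillary-like cells, 5 of the 8 channel genes were called (3 higher, 2 lower), against 24.1% of all genes. Arterial-like against venous-like cells, 5 were called (4 higher, 1 lower), against 28.0%. Venous-like against capillary-like cells, 7 were called (4 higher, 3 lower), against 30.7%. Lymphatic-like cells against the mean of the other 3 classes, 5 were called (3 higher, 2 lower), against 46.1% of all genes. The median log2 difference of the 8 genes in these 4 contrasts was 0.03, 0.77, 0.32 and 0.06, and that of all genes was -0.03, -0.01, -0.02 and -0.01. The other genes tested shaped the classes, so these shares describe how far apart the classes are. Only 6 libraries had enough capillary-like cells for these contrasts.

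**Figure D1:**
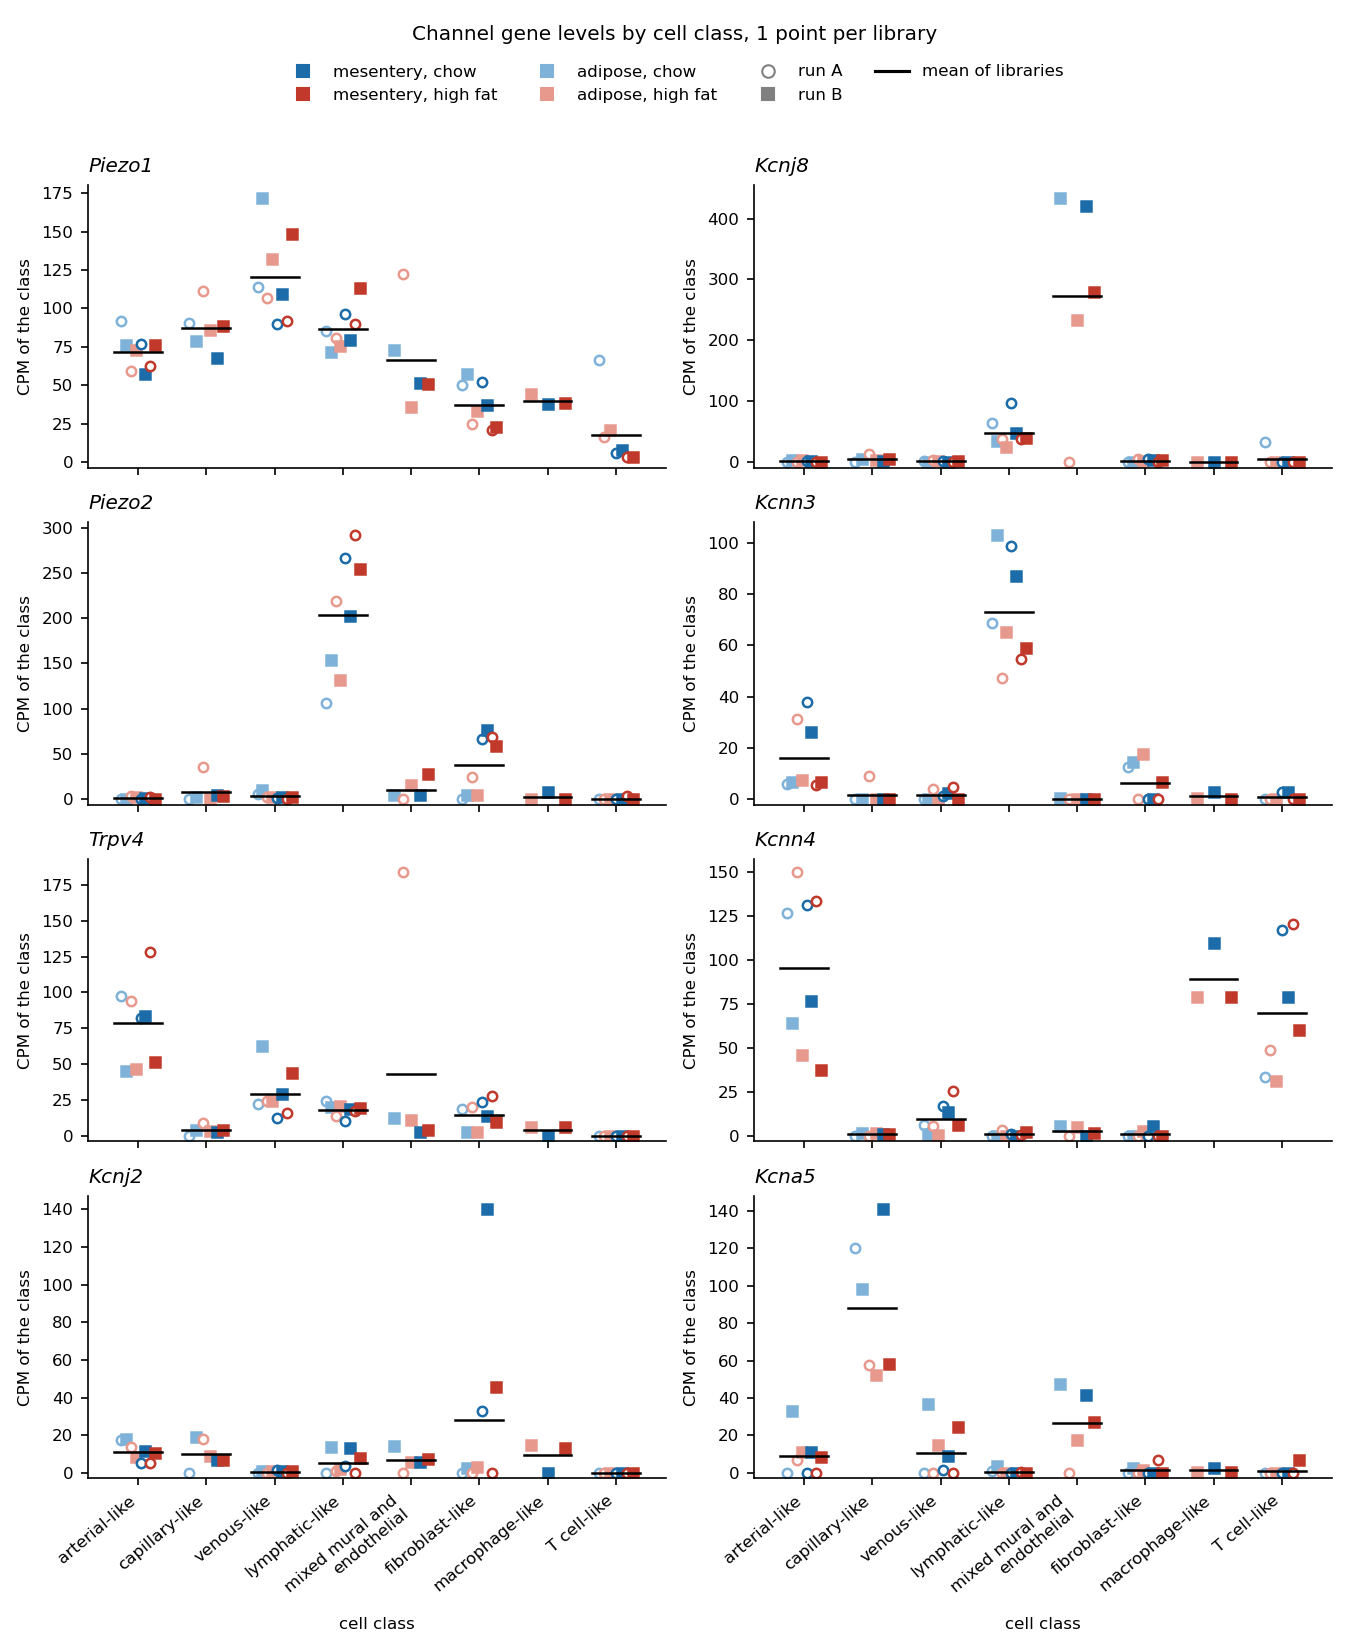
Level of each channel gene in CPM (vertical axis) by cell class (horizontal axis), 1 panel per gene. Each point is 1 library with at least 20 cells of the class (open circle run A, filled square run B) and the black line is the mean; Piezo1 is spread over the endothelial classes (arterial-like mean 71.6, venous-like 120.5), whereas Piezo2 stands in lymphatic-like cells (203.1) and Kcna5 in capillary-like cells (88.0).

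Piezo1, the pore of the mechanically gated channel through which endothelial cells sense flow, was found in every endothelial class and was highest in venous-like cells. In venous-like cells it had 114, 172, 107 and 132 CPM in adipose on chow A, adipose on chow B, adipose on high fat diet A and adipose on high fat diet B, and 89.8, 109, 92.0 and 149 CPM in the mesentery libraries in the same order. In arterial-like cells the corresponding values were 92.0, 76.4, 59.3 and 72.7 CPM in adipose and 76.7, 57.2, 62.7 and 75.9 CPM in mesentery. The arterial-like value was the lower of the pair in 8 of 8 libraries, although the ranges over libraries overlap. The difference of arterial-like minus venous-like cells was -0.83 on the log2 scale (SE 0.12, edgeR adjusted p = 2.85e-06), a 1.78-fold lower level. With the run A libraries alone it was -0.52 (adjusted p = 0.0702). Venous-like cells were also higher than capillary-like cells, by 0.61 (SE 0.13, edgeR adjusted p = 5.09e-04, higher in 5 of 6 libraries), and with run A alone by 0.06 (adjusted p = 0.982). Capillary-like cells had 87.1 ± 14.3 CPM (n = 6) and lymphatic-like cells 86.5 ± 13.4 CPM (n = 8), neighbours in the order that did not differ beyond their spread. Arterial-like cells had 71.6 ± 11.5 CPM (n = 8), and the difference from capillary-like cells did not pass the test (-0.22, SE 0.13, edgeR adjusted p = 0.273). Outside the endothelium the level was lower, at 37.3 ± 14.3 CPM in fibroblasts (n = 8) and 39.9 ± 3.55 CPM in macrophages (n = 3).

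Piezo2, the paralogue best known from touch-sensing neurons, was a lymphatic gene in these libraries. Lymphatic-like cells had 106, 153, 219 and 131 CPM in adipose on chow A and B and adipose on high fat diet A and B, and 266, 203, 292 and 254 CPM in mesentery in the same order. No library of arterial-like cells exceeded 3.49 CPM and none of venous-like cells exceeded 10.11 CPM, so the lymphatic-like values overlap with those of no other class. Against the mean of the other 3 endothelial classes the difference was 6.60 (SE 0.26, edgeR adjusted p = 3.22e-17, higher in 8 of 8 libraries). Among capillary-like cells 1 library stood out: adipose on high fat diet A had 35.6 CPM, from 8 UMIs. Lymphatic markers summed to 1658 CPM in those cells, against 35.8 to 74.2 CPM in the capillary-like cells of the run B libraries. Whether these markers account for the value was not tested. Fibroblasts had 58.7 to 75.9 CPM in the mesentery libraries and 0 to 24.9 CPM in those of adipose.

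Trpv4, a calcium-permeable channel coupled in arteries to the calcium-activated potassium channels, was highest in arterial-like cells. There it had 97.8, 44.9, 94.2 and 46.6 CPM in adipose (chow A and B, high fat diet A and B) and 81.9, 83.8, 128 and 51.6 CPM in mesentery in the same order. Values were higher in run A than in run B in 3 of the 4 groups, the exception being mesentery on chow. Capillary-like cells had at most 8.89 CPM in any library, well below the lowest arterial-like value, and the difference was 4.15 (SE 0.33, edgeR adjusted p = 1.67e-10, higher in 6 of 6 libraries). Venous-like cells, above capillary-like cells by 2.98 (SE 0.34, edgeR adjusted p = 9.65e-08), lay between at 29.3 ± 16.3 CPM (n = 8), and lymphatic-like cells had 18.1 ± 4.42 CPM. The arterial-like level was above the venous-like level by 1.17 (SE 0.24, edgeR adjusted p = 4.08e-04, higher in 7 of 8 libraries). In run B alone this difference was 0.57 (adjusted p = 0.0925), and in adipose on chow B venous-like cells were the higher at 62.5 CPM. T cells had no Trpv4 UMI in any library.

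**Figure D2:**
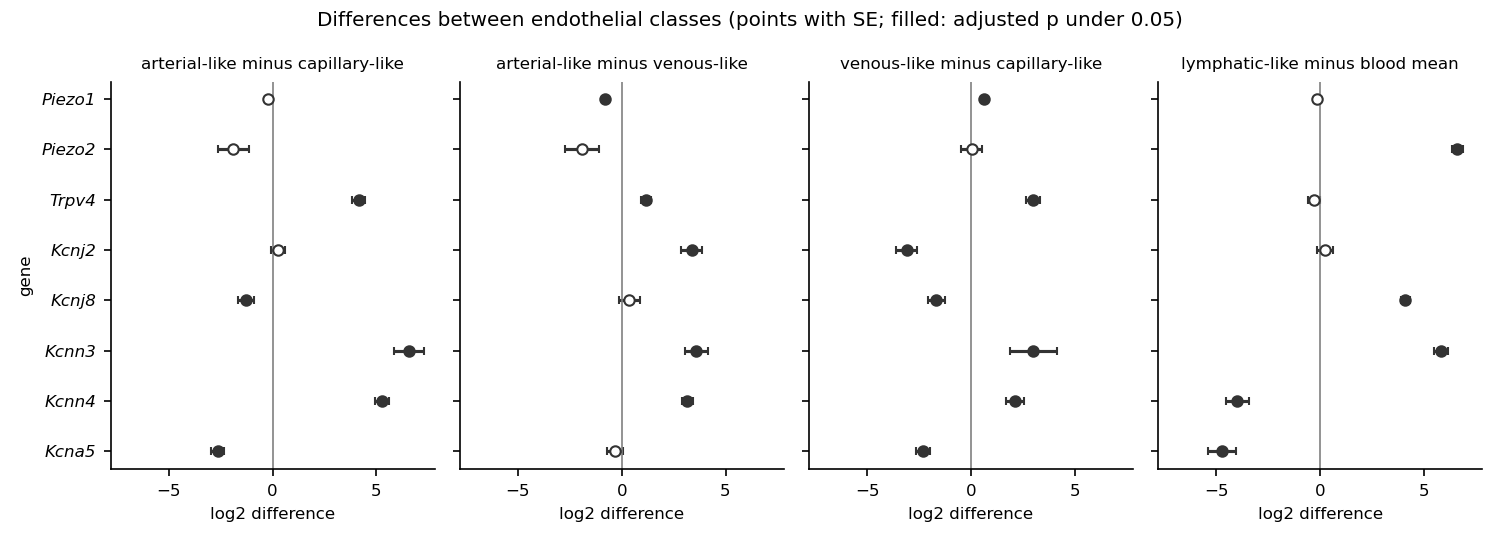
Log2 difference between endothelial classes for each of the 8 channel genes (horizontal axis, bars are ± SE derived from the edgeR test statistic) in 4 contrasts. Filled points passed adjusted p under 0.05. Trpv4, Kcnn3 and Kcnn4 lie to the arterial-like side against capillary-like and venous-like cells, and Piezo2, Kcnj8 and Kcnn3 to the lymphatic-like side.

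Kcnj2, which encodes the inward rectifier Kir2.1, was sparse in endothelial cells. Arterial-like cells had 17.3, 18.1, 14.0 and 8.44 CPM in adipose (chow A and B, high fat diet A and B) and 5.20, 11.4, 5.45 and 10.5 CPM in mesentery. Venous-like cells had at most 1.68 CPM, below every arterial-like value, and the difference was 3.36 (SE 0.50, edgeR adjusted p = 6.65e-06, higher in 8 of 8 libraries). Capillary-like cells had 9.79 ± 7.29 CPM (n = 6), and the difference of arterial-like from capillary-like cells was 0.27 (SE 0.33, edgeR adjusted p = 0.648). The highest pooled levels were outside the 4 named classes. A fibroblast cluster led by Sfrp5, Lypd2 and Igfbp6 (cluster 25) had 153.9 CPM, and an unnamed endothelial cluster led by Coch, Il4i1 and Bmp2 (cluster 28, 74.0% from mesentery on chow B) had 137.6 CPM. In the fibroblasts of mesentery on chow B the level was 140 CPM, and in those of mesentery on high fat diet B it was 45.7 CPM. In run A these were 33.1 CPM (7 UMIs) and 0 CPM, and fibroblasts of adipose had at most 2.90 CPM in any library.

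Kcnj8, the Kir6.1 pore subunit, was chiefly a gene of the mixed mural and endothelial cluster. That cluster held 1912 of its 2675 UMIs. In run B it had 433 CPM in adipose on chow, 234 in adipose on high fat diet, 420 in mesentery on chow and 279 in mesentery on high fat diet. Run A held few such cells: the 22 of adipose on high fat diet A had no Kcnj8 UMI, and the 7 of adipose on chow A had 7 UMIs. Mural markers summed to 6936 to 10001 CPM in that cluster, against 108 to 544 CPM in arterial-like cells. The same cluster held Abcc9, the sulfonylurea receptor SUR2 with which Kir6.1 assembles, at a pooled 548.7 CPM, against 10.6 CPM in capillary-like and 4.3 CPM in arterial-like cells. Lymphatic-like cells also carried Kcnj8, with 64.8, 35.2, 38.7 and 25.2 CPM in adipose (chow A and B, high fat diet A and B) and 96.3, 48.1, 38.4 and 39.3 CPM in mesentery. These exceed every value of arterial-like (at most 2.94 CPM) and capillary-like cells (at most 13.3 CPM), and the difference from the mean of the 3 blood endothelial classes was 4.12 (SE 0.22, edgeR adjusted p = 1.21e-14, higher in 8 of 8 libraries). Mural markers in lymphatic-like cells were at 4.6 to 47.2 CPM, with 2 to 9 of 11 at 0. Abcc9 in lymphatic-like cells was at 5.3 CPM pooled. Kcnj8 was also called lower in arterial-like than in capillary-like cells (-1.29, SE 0.38, edgeR adjusted p = 0.0115). Both levels are low (1.17 ± 1.22 and 4.80 ± 4.60 CPM), and the call was lost in run A alone (adjusted p = 0.0626) and in run B alone (adjusted p = 0.101).

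Kcnn3, which encodes the small-conductance channel SK3, had 2 places among the endothelial classes, lymphatic-like and arterial-like cells. Lymphatic-like cells had 68.8, 103, 47.2 and 65.2 CPM in adipose (chow A and B, high fat diet A and B) and 98.9, 87.2, 54.7 and 58.9 CPM in mesentery, above the values of all other endothelial classes. The difference from the mean of the 3 blood classes was 5.82 (SE 0.33, edgeR adjusted p = 3.85e-14, higher in 8 of 8 libraries). It is taken on the log2 scale, where the near-zero capillary-like level weighs heavily. The mean CPM were 73.0 against 7.18, with 15.9 in arterial-like cells. Arterial-like cells had 5.75, 6.64, 31.4 and 7.34 CPM in adipose and 37.7, 26.0, 5.45 and 6.62 CPM in mesentery. Both mesentery on chow libraries and run A of adipose on high fat diet stood above the other 5. Venous-like cells had at most 4.60 CPM, and the difference of arterial-like from venous-like cells was 3.59 (SE 0.55, edgeR adjusted p = 1.05e-05, higher in 8 of 8 libraries). Capillary-like cells had 2 UMIs in all, both in adipose on high fat diet A, against 156 UMIs in the arterial-like cells of the same 6 libraries. The ratio of the pooled rates was 189.9 (exact 95% interval 51.7 to 1582, counting error only). The call between these classes (edgeR adjusted p = 6.28e-08) was lost in run A alone (adjusted p = 0.669). Venous-like cells were called above capillary-like cells as well (edgeR adjusted p = 0.0442), but on 11 UMIs against 2, a ratio of 17.3 (3.78 to 160.7), and DESeq2 did not call it (adjusted p = 0.172). Kcnn3 was not confined to endothelium. Fibroblasts of adipose had 12.5 (2 UMIs), 14.3 (6 UMIs), 0 and 17.4 CPM (12 UMIs) on chow A and B and high fat diet A and B. Those of mesentery had at most 6.52 CPM. Unnamed non-endothelial clusters had 11.2, 0, 35.8 (12 UMIs) and 0 CPM in the adipose libraries in the same order.

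Kcnn4, the intermediate-conductance channel of the same family, was an arterial gene among the endothelial classes. Arterial-like cells had 127, 64.1, 150 and 46.3 CPM in adipose (chow A and B, high fat diet A and B) and 131, 76.7, 134 and 37.3 CPM in mesentery, with run A above run B in all 4 groups. Capillary-like cells had at most 1.76 CPM and lymphatic-like cells at most 3.22 CPM. The difference of arterial-like from capillary-like cells was 5.28 (SE 0.35, edgeR adjusted p = 5.90e-12, higher in 6 of 6 libraries). Venous-like cells had 0.51 to 25.3 CPM, below every arterial-like value, a difference of 3.16 (SE 0.26, edgeR adjusted p = 3.13e-10, higher in 8 of 8 libraries). Lymphatic-like cells were below the mean of the blood classes by -3.98 (SE 0.55, edgeR adjusted p = 9.63e-07, lower in 8 of 8 libraries). Kcnn4 was not confined to endothelium. Macrophages had 89.4 ± 17.9 CPM (n = 3) and T cells 70.0 ± 37.1 CPM (n = 7), and these ranges overlap with that of arterial-like cells. Macrophage markers summed to 2.9 to 88.5 CPM and T cell markers to 0 to 5.5 CPM in arterial-like cells.

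Kcna5, the voltage-gated channel Kv1.5, was the capillary member. Capillary-like cells had 120, 98.2, 57.8 and 52.4 CPM in adipose (chow A and B, high fat diet A and B) and 141 and 58.3 CPM in mesentery on chow B and on high fat diet B. The 16 and 12 cells of the run A mesentery libraries were left out of the mean. Every value exceeds those of arterial-like (at most 32.9 CPM), venous-like (at most 36.8 CPM) and lymphatic-like cells (at most 3.77 CPM). Arterial-like cells were lower by -2.65 on the log2 scale (SE 0.33, edgeR adjusted p = 6.27e-07, lower in 6 of 6 libraries) and venous-like cells by -2.31 (SE 0.34, edgeR adjusted p = 6.17e-06, lower in 6 of 6). Lymphatic-like cells were below the mean of the blood classes by -4.71 (SE 0.68, edgeR adjusted p = 1.49e-06, lower in 7 of 8). Among the capillary-like clusters cluster 1, led by Spon2 and Timp4 and with 69.1% of its cells from adipose on chow B, had 109.5 CPM pooled, cluster 2 had 61.2 and cluster 3 had 53.1. Kcna5 is itself among the 10 leading genes of cluster 1, though it took no part in the clustering. The cluster with adipocyte and endothelial markers together (cluster 8) had 78.2 CPM.

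Within the arterial-like class the channels were not spread evenly. Cluster 5, led by Alox12, Col8a1 and Nebl, was low in Trpv4 (38.8 CPM pooled), Kcnn4 (28.0) and Kcnn3 (1.9). Cluster 10, led by Igf2, Gkn3 and Dkk2, had 86.6, 117.9 and 22.7 CPM of the same genes. Cluster 23, led by Klk10, Adh7 and Pi16 and with 81.0% of its cells from mesentery on chow B, had 105.8, 118.4 and 44.5 CPM. Cluster 15, found in run A only and led by Nr4a1 and Gprc5a, had 95.9 and 138.8 CPM of Trpv4 and Kcnn4, and its Kcnn3 is given by library below. In each of the 4 run B libraries cluster 10 was above cluster 5 for Kcnn4: 128 against 43.9 CPM in adipose on chow, 133 against 24.4 in adipose on high fat diet, 97.2 against 13.5 in mesentery on chow and 112 against 18.3 in mesentery on high fat diet. Kcna5 ran the other way, with 24.6 CPM pooled in cluster 5 and no UMI in clusters 15 and 23. Capillary markers summed to 1354 to 11611 CPM in the arterial-like cells of run A and to 15359 to 52545 CPM in those of run B. Their part in the Kcna5 values was not tested. These clusters were formed from other genes of the same cells, and the differences between them are descriptions.

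**Figure D3:**
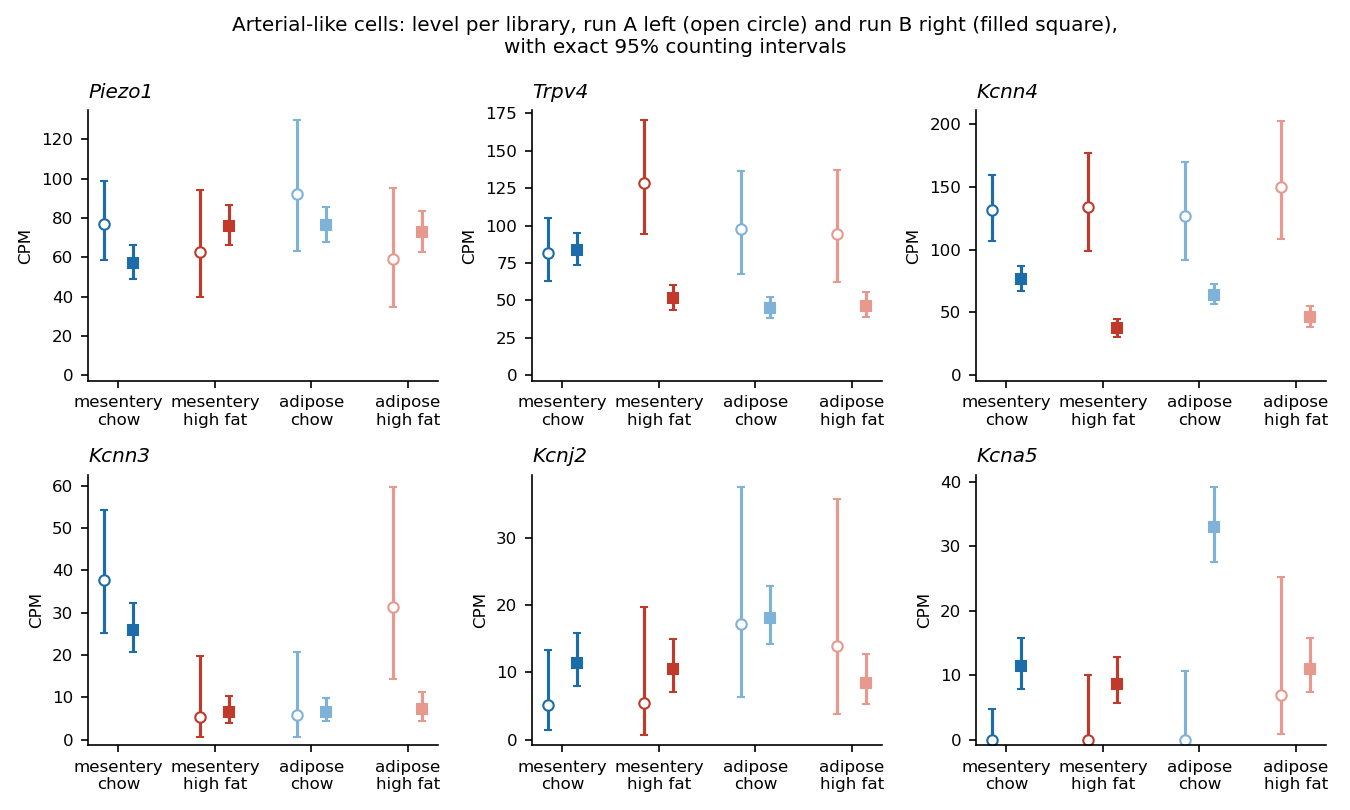
CPM of 6 channel genes in the arterial-like cells of each of the 8 libraries (points), with exact 95% intervals for counting error (bars). Kcnn4 is higher in run A than in run B in all 4 groups, and Kcnn3 stands high in both mesentery on chow libraries (37.7 and 26.0 CPM) and in run A of adipose on high fat diet (31.4 CPM).

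Lymphatic-like cells also fell into parts. Cluster 14 (588 cells, present in all 8 libraries and led by Spp1, Fibin and Nts) was set beside cluster 4 (run A, led by Reln, Ptx3 and Mmrn1) or cluster 19 (run B, led by Ccl21a, Pdpn and Lyve1) of the same library. Piezo2 was 28.6 ± 24.5 CPM in cluster 14 and 272 ± 99.0 CPM in clusters 4 or 19 (n = 8), lower in 8 of 8 libraries. Kcnj8 was 4.17 ± 2.82 against 64.3 ± 28.3 CPM and Kcnn3 8.75 ± 5.47 against 99.5 ± 35.4 CPM, both lower in 8 of 8. Piezo1 did not follow them: it was 104 ± 18.2 CPM in cluster 14 and 80.0 ± 14.9 CPM in the others, higher in 7 of 8 libraries. Kcnj2 was found in cluster 14 (40 UMIs) and had 0 UMIs of 5852811 in clusters 4 and 19, which allows up to 0.51 CPM. No test was run between clusters.

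Diet and tissue were compared in all endothelial cells, in arterial-like and capillary-like cells, and in lymphatic-like cells, the last added after their levels had been seen. edgeR was fitted to all 8 libraries with 1 mean per group. No channel gene was called in any of the 20 comparisons. In the order diet in mesentery, diet in adipose, tissue on chow, tissue on high fat diet and interaction of tissue with diet, 0, 0, 0, 0 and 1 of 8 channel genes had an unadjusted p under 0.05 in all endothelial cells, 1, 0, 1, 0 and 1 of 6 tested in arterial-like cells, 0, 1, 0, 0 and 0 of 5 in capillary-like cells and 1, 0, 1, 0 and 0 of 6 in lymphatic-like cells. DESeq2 called none either. The background was as low: 0.0% of 13508 genes in all endothelial cells, 0.0% of 10182 in arterial-like cells and 0.0% of 8977 in lymphatic-like cells were called in each comparison, and in capillary-like cells 0.18, 0.59, 0.04, 0.08 and 0.03% of 10003 genes. When the run was added as a block the shares rose to 0.0, 0.0074, 0.311, 0.0 and 0.0% in all endothelial cells, 2.79, 0.255, 3.29, 0.128 and 0.0% in arterial-like cells, 1.29, 1.85, 0.4, 0.23 and 0.06% in capillary-like cells and 2.12, 0.0223, 1.72, 0.212 and 0.0% in lymphatic-like cells. Among the channel genes the block changed the call of Kcnn3 in arterial-like cells only. A p that misses the threshold does not show that the groups were alike. In simulated arterial-like counts the fit without the block called 0 of 100 genes changed 4-fold, so its lack of calls says little.

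Kcnn3 in arterial-like cells was lower on the high fat diet in mesentery. Mesentery on chow had 37.7 CPM in run A (29 UMIs) and 26.0 CPM in run B (80 UMIs), and mesentery on high fat diet had 5.45 CPM (2 UMIs) and 6.62 CPM (19 UMIs). The groups do not overlap. The log2 difference was -2.42 (SE 0.72, edgeR adjusted p = 1.0) without the block and -2.13 (SE 0.45, edgeR adjusted p = 0.0123) with the run as a block. In adipose the order was the other way, with 5.75 and 6.64 CPM on chow and 31.4 (9 UMIs) and 7.34 CPM on high fat diet, a difference of 0.76 (SE 0.52, edgeR adjusted p = 1.0) with the block. On chow, mesentery was above adipose by 2.10 (SE 0.44, edgeR adjusted p = 0.00715) with the block and by 2.40 (SE 0.72, adjusted p = 1.0) without it. Both comparisons use the mesentery on chow libraries. The difference between the diet effects in mesentery and adipose was -2.88 with the block (edgeR adjusted p = 0.319), so the tissues were not shown to differ in their response. The blocked calls were lost without mesentery on chow B (diet -1.88, adjusted p = 0.369; tissue 1.85, adjusted p = 0.333), the diet call also without mesentery on high fat diet B (adjusted p = 0.346) and the tissue call without adipose on chow B (adjusted p = 0.331). DESeq2 with the block gave adjusted p values of 0.0925 and 0.0886.

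In run B the makeup of the arterial-like class differed between libraries too. In run A cluster 15 held most arterial-like cells, so the shares of clusters 5, 10 and 23 could hardly be compared there. In mesentery on chow B clusters 5, 10 and 23 held 30.2, 35.9 and 33.8% of arterial-like cells, and in mesentery on high fat diet B 73.3, 22.2 and 4.5%. Adipose on chow B had 61.6, 34.4 and 4.1%. Adipose on high fat diet B had 66.7, 32.6 and 0.7%. In run B cluster 5, with 0.85 to 2.69 CPM of Kcnn3, held most arterial-like cells in the 3 libraries where Kcnn3 was low. The part of this makeup in the Kcnn3 differences was not tested. In run A cluster 15 held 96.1% in mesentery on chow, 97.0% in adipose on chow, 90.8% in mesentery on high fat diet and 83.9% in adipose on high fat diet, whether Kcnn3 was high or low. Within cluster 10 Kcnn3 had 30.5 CPM (21 UMIs) in mesentery on chow B and 9.31 CPM (3 UMIs) in mesentery on high fat diet B. The adipose libraries of run B had 18.3 CPM (16 UMIs) on chow and 28.1 CPM (15 UMIs) on high fat diet. Within cluster 15, run A, it had 38.4 CPM (29 UMIs) in mesentery on chow and 5.82 CPM (2 UMIs) in mesentery on high fat diet. In adipose it had 5.86 CPM (2 UMIs) on chow and 37.9 CPM (9 UMIs) on high fat diet. Within cluster 23 the order in mesentery was reversed, at 43.9 CPM on chow and 72.4 CPM on high fat diet. With clusters held mostly by 1 library left out, the blocked differences were -2.83 (adjusted p = 0.0698) for diet and 1.53 (adjusted p = 0.345) for tissue. Capillary markers in the arterial-like cells of mesentery summed to 1354 CPM on chow and 5461 CPM on high fat diet in run A, and to 15359 and 40348 CPM in run B. The part of these markers in the Kcnn3 difference was not tested.

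**Figure D4:**
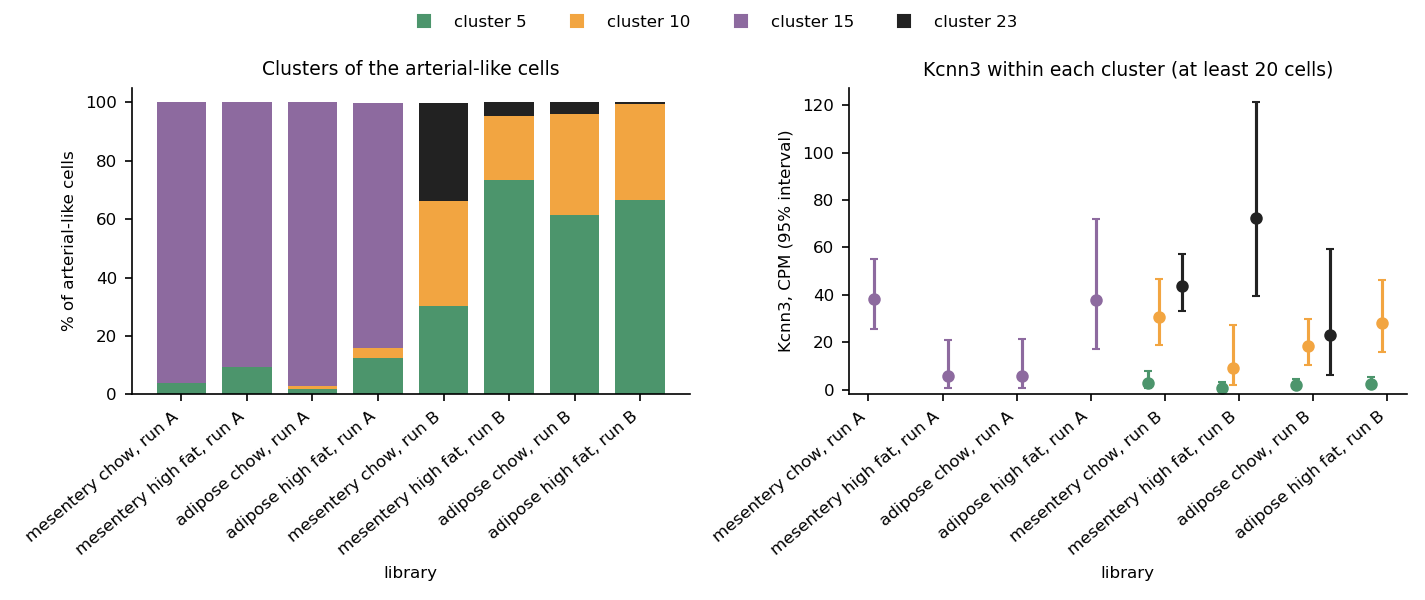
Left, share of arterial-like cells (percent) in clusters 5, 10, 15 and 23 for each library. Right, Kcnn3 level (CPM) in each arterial-like cluster and library with at least 20 cells; cluster 5, shown for the 4 run B libraries, stays at 0.85 to 2.69 CPM, and its share is 30.2% in mesentery on chow B and 73.3% in mesentery on high fat diet B.

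In lymphatic-like cells Kcnn3 and Kcnj8 were lower on the high fat diet in each of the 4 pairs of tissue and run, though no difference passed the test. Kcnn3 went from 98.9 to 54.7 CPM and from 87.2 to 58.9 CPM in mesentery (runs A and B), a log2 difference of -0.72 (SE 0.28, edgeR unadjusted p = 0.0312, adjusted p = 1.0, with the block adjusted p = 0.133). In adipose it went from 68.8 to 47.2 CPM and from 103 to 65.2 CPM (-0.60, SE 0.28, adjusted p = 1.0). Kcnj8 in mesentery went from 96.3 to 38.4 CPM and from 48.1 to 39.3 CPM (-0.90, SE 0.48, edgeR adjusted p = 1.0, with the block 0.0912). The order was the same when cluster 14 was set aside: in clusters 4 and 19 Kcnn3 went from 127 to 63.7 and from 153 to 94.2 CPM in mesentery and from 73.8 to 53.3 and from 132 to 99.2 CPM in adipose. In the lymphatic-like cells of mesentery the lymphatic marker list summed to 28485 and 32972 CPM on chow and to 31004 and 40428 CPM on high fat diet, and the adipocyte list to 21.5 and 161 CPM on chow and to 7.1 and 8.1 CPM on high fat diet (runs A and B). In adipose the lymphatic list summed to 35063 and 49369 CPM on chow and to 33432 and 53426 CPM on high fat diet, and the adipocyte list to 6.9 and 147 CPM on chow and to 23.6 and 11.4 CPM on high fat diet. Their part in these differences was not tested. The Piezo2 level of lymphatic-like cells in mesentery was above that in adipose in all 4 pairs of diet and run, by 0.89 on chow (SE 0.36, edgeR unadjusted p = 0.0383, adjusted p = 1.0, with the block 0.0764) and by 0.65 on high fat diet (SE 0.36, adjusted p = 1.0, with the block 0.438). With finer clusters (resolution 2.0) and the block, the differences in mesentery passed the test for Kcnj8 (-1.04, adjusted p = 0.0165) and Kcnn3 (-0.91, adjusted p = 0.0201), and so did Piezo2 on chow (1.22, adjusted p = 0.00108).

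No other difference between groups passed the test with all 8 libraries. Kcna5 in capillary-like cells was 120 and 98.2 CPM in adipose on chow and 57.8 and 52.4 CPM on high fat diet, lower in both runs, with a log2 difference of -0.72 that did not pass the test (edgeR adjusted p = 1.0). In mesentery the run B libraries had 141 CPM on chow and 58.3 CPM on high fat diet. The difference over both runs was -1.26 (edgeR unadjusted p = 0.056, with the block 0.0114, adjusted p = 0.398). Run A held 2 UMIs in 16 cells on chow and 0 in 12 cells on high fat diet, so it rests mainly on 1 library per diet. The share of adipose on chow B in cluster 1 stands beside these values, and its part was not tested. Kcnj8 in all endothelial cells was 19.99 and 23.6 CPM in mesentery on chow and 28.0 and 36.5 CPM on high fat diet (runs A and B). In adipose it was 34.9 and 32.2 CPM on chow and 19.5 and 24.98 CPM on high fat diet. The diets do not overlap in either tissue and differ in opposite directions, by 0.55 in mesentery (edgeR unadjusted p = 0.0707) and -0.53 in adipose (unadjusted p = 0.0795), with an interaction of 1.08 (unadjusted p = 0.0223, adjusted p = 1.0, with the block 0.909). In run B the mixed mural and endothelial cluster held most of these UMIs. With the mixed clusters left out, the run B libraries had 4.55 to 8.45 CPM, with mesentery at 8.45 on chow and 5.53 on high fat diet. In run A lymphatic-like cells held most, 76 of 104 UMIs in mesentery on chow and 54 of 71 on high fat diet. Their share of endothelial cells went from 26.8 to 59.3% in mesentery A and from 56.1 to 42.8% in adipose A. Within them Kcnj8 went from 96.3 to 38.4 CPM and from 64.8 to 38.7 CPM. The part of these shares was not tested. Kcnj2 in all endothelial cells had the lowest value for diet in mesentery, -1.37 (edgeR adjusted p = 1.0; with the block -1.40, adjusted p = 0.247). Of the 408 Kcnj2 UMIs of mesentery on chow B, 318 were in unnamed endothelial clusters, to which cluster 28 belongs. Piezo1, Trpv4 and Kcnn4 had no adjusted p below 0.05 in any class with all 8 libraries, with or without the block.

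Related channels and partners, a list also chosen with earlier results known, were counted in the same contrasts. Of 40 other potassium channels and subunits 7 had enough counts, and of these 5, 4, 2 and 6 were called in the 4 contrasts (2 of the 5, 2 of the 4, 1 of the 2 and 1 of the 6 were higher in the first class). The shares of all genes called in these contrasts, 24.1, 28.0, 30.7 and 46.1%, are the background for this list and the next 2, and several of the counts lie near it. Kcne3, a regulatory subunit, was higher in arterial-like than in capillary-like cells by 6.27 (SE 0.29, edgeR adjusted p = 8.85e-15). Kcnk5, a background potassium channel, was the lymphatic one, with a difference of 6.69 (SE 0.36, edgeR adjusted p = 1.24e-14). Of 27 calcium-permeable and mechanically gated channels 18 had enough counts, and 7, 5, 7 and 10 were called (6, 3, 5 and 7 higher). Trpm6, a magnesium and calcium channel, was higher in arterial-like than in capillary-like cells by 5.76 (SE 0.52, edgeR adjusted p = 4.64e-08), as were Orai1 by 1.42 and Stim1 by 0.73, the pore and the sensor of store-operated calcium entry. Orai1 and Stim1 were not particular to arterial-like cells: venous-like cells were above capillary-like cells too, by 0.98 and 1.08. Stim1 was lower in arterial-like than in venous-like cells (-0.35, SE 0.09, edgeR adjusted p = 0.00593). Of 9 partners 7 were tested and 2, 2, 2 and 6 called (0, 0, 1 and 3 higher): Pacsin3, which binds Trpv4, was higher in lymphatic-like cells by 3.49, Mdfi and Mdfic, which bind Piezo channels, by 4.27 and 0.78, and Cav1, of caveolae, lower by -1.32.

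Between groups none of the related genes was called without the block. With it, Kcnk5 in lymphatic-like cells fell on the high fat diet in mesentery by -1.49 (SE 0.32, edgeR adjusted p = 0.0178), from 40.6 to 10.7 CPM in run A and from 59.8 to 26.6 CPM in run B. It was higher in mesentery than in adipose on chow by 1.47 (SE 0.33, adjusted p = 0.0266), adipose on chow having 8.84 and 30.2 CPM. Cav1 in the same cells was higher in mesentery on chow, by 0.83 (SE 0.19, edgeR adjusted p = 0.0332). Orai1 in arterial-like cells was higher in mesentery than in adipose on chow by 0.88 (SE 0.22, adjusted p = 0.0276), with 239 and 177 CPM against 173 and 85.0 CPM. Akap5, an anchoring protein, had 20.5 CPM (75 UMIs) on chow and 2.87 CPM (17 UMIs) on high fat diet in the capillary-like cells of mesentery in run B. It was called with the block too, but neither run A library held a UMI, so the difference compares 1 library per diet.

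The genes whose levels ran most like each member were found by Pearson correlation of log2(CPM + 10) over 52 points of named classes and libraries (8 libraries, 6639 genes). The points share libraries and depth, so r is a description. Piezo1 ran most like Cdc42bpb (r = 0.894), Piezo2 like Sema3d and Nsg1 (both 0.943), Trpv4 like the arterial marker Clu (0.898) and Fgfr3 (0.896), and Kcnj8 like Tbx1 (0.934) and Ackr2 (0.932). Kcnn3 ran most like Gucy1b1 (0.900), which encodes a subunit of the nitric oxide receptor, Kcnn4 like Fxyd5 (0.796) and Kcna5 like Ccdc85a (0.951) and the capillary marker Car4 (0.933). Kcnj2 had no gene above 0.698 (Rala). Among the members themselves, Kcnj8 ran with Piezo2 (0.869) and with Kcnn3 (0.806), and Kcnn3 with Piezo2 (0.710). The mixed mural and endothelial cluster, which held most Kcnj8 UMIs, was not among these points. In its run B libraries Kcnj8 was at 234 to 433 CPM, Piezo2 at 4.15 to 27.4 CPM and Kcnn3 at 0 to 0.52 CPM. The r values of Kcnj8 therefore describe the named classes only, and r with that cluster included was not tested.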

How the data were processed

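Gene counts (UMIs per gene and barcode, with no normalisation) were deposited by the authors for 8 libraries made with 10x Genomics 3′ chemistry. Per the file headers, Cell Ranger 3.0.2 was used for run A and 5.0.0 for run B. Per the submitters' processing notes the build was mm10 and Seurat 4.3.0 was used. Neither the annotation nor the sort gate was stated. The feature lists (31053 and 32285 genes) share 30406 genes, which hold 99.58 to 99.93% of UMIs.

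Cells with at least 500 UMIs, 300 genes and at most 10% mitochondrial UMIs were kept (23974 of 27944 barcodes). Scrublet's automatic threshold marked 48 cells (0.2%), so it was set by library loading instead and removed 764 (3.19%). Cells were clustered (scanpy 1.11.5, leidenalg 0.10.2, resolution 1.0) on 2000 variable genes without the channel lists, after correction for run. A cluster was named where at least 3 markers of a class were raised 1.5-fold.

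UMIs were summed per library and class and tested with edgeR's quasi-likelihood test (TMM, filterByExpr), adjusted over all genes tested. The SE given with edgeR is the absolute log2 difference divided by the square root of the F statistic. Tests were checked on simulated arterial-like counts with changes for diet in mesentery. Without the block 0 of 100 genes changed 2-fold and 0 of 100 changed 4-fold were recovered. With the run as a block 34 and 84 of 100 were recovered, with 6 false calls. Run letters pair the libraries, since the labels describe a repeated experiment. Deviations from group means correlated between groups of a run at 0.59 to 0.74 in all endothelial, 0.51 to 0.65 in arterial-like, 0.15 to 0.24 in capillary-like and 0.62 to 0.7 in lymphatic-like cells (6 pairs of groups each). Alternatives were DESeq2, the run as a block, no count filter, leaving out libraries, 1 run, finer clusters, kept doublets and a 20% mitochondrial limit. The rule for naming was all 8 members, then related channels and partners past the test. Members and lists were chosen with earlier results of these data known. Some related genes are counted but not reported here by name.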

Additional observations from a re-analysis of the deposited data

How the results depend on the processing

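The depth of the run A libraries and their 12 to 141 capillary-like cells limit all capillary values, and levels under 10 CPM rest on few UMIs in most libraries. The counts of called channel genes for diet and tissue are all 0 without the block, so a count that stays at 0 says nothing about stability. The counts that moved were as follows. With the replicate block, 1 channel gene (Kcnn3) was called for diet in mesentery and 1 for tissue on chow in arterial-like cells, against 0 without it; the replicate block changed no other call. With the block, resolution 2.0 and kept doublets also gave 1 and 1, and the 20% mitochondrial limit gave 1 for diet and lost tissue on chow (1.60, adjusted p = 0.0833). In lymphatic-like cells resolution 2.0 with the block gave 2 for diet in mesentery and 1 for tissue on chow. These settings with the block, and the lymphatic-like class, were chosen after seeing the data. Leaving out 1 library at a time, with or without the block, the count ranged over 0 to 1 for diet in mesentery and tissue on chow in all endothelial cells, 0 to 2, 0 to 3 and 0 to 1 for diet in mesentery, tissue on chow and the interaction in arterial-like cells, 0 to 1 for diet in adipose, tissue on chow and tissue on high fat diet in capillary-like cells and 0 to 1 for tissue on chow in lymphatic-like cells. With run A alone, 3 genes were called for arterial-like against venous-like, 2 for venous-like against capillary-like and 3 for lymphatic-like cells against the mean of the others, and Kcnn3 in venous-like against capillary-like cells turned from 3.00 to -2.40 (adjusted p = 0.51). That contrast sets 11 UMIs against 2. Without mesentery on chow A and with the block, arterial-like Kcnn4 (diet in mesentery, -0.94), Trpv4 (tissue on chow, 0.96), Kcna5 (tissue on chow, -1.41) and Kcnn3 (interaction, -2.90), capillary-like Kcnj2 (diet in adipose, -0.96) and Piezo2 of all endothelial cells (tissue on chow, 1.42) were called. Capillary-like Kcnj2 was called for tissue on chow without mesentery on chow A, adipose on chow A or mesentery on high fat diet A (-1.46, -1.51 and -1.48). Piezo2 was called without mesentery on chow B (diet in mesentery, all endothelial cells, 1.97), without adipose on chow B (tissue on chow, lymphatic-like, 1.30) and, without the block, without adipose on high fat diet A (tissue on high fat diet, capillary-like, 2.79). The cause of each shift was not tested. Of the log2 differences, 175 kept their direction and side of the threshold, 19 newly passed it, 13 no longer did and 1 reversed. Of the levels of the channel genes by class, 53 moved by more than the spread between libraries and 459 did not.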
